A study of Mus musculus with 16 samples.

Results

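The 40 genes described here encode the machinery of the lysosome: 16 subunits and accessory proteins of the proton pump V-ATPase, 6 proteins of the lysosomal membrane or of cholesterol export, 3 transcription factors of the MiT family (*Tfeb*, *Tfe3* and *Mitf*), 7 glycosidases, 5 genes of lipid breakdown, and 3 peptidases or thioesterases. They were taken by gene symbol from a list drawn up with earlier results of these data known. All 40 were found among the 54347 genes of the count table. Bulk RNA-seq compared 2 populations sorted from bone marrow in 4 groups of 4 libraries each. UREΔ mice lack the upstream regulatory element (URE) of *Spi1*, an enhancer of the gene for the transcription factor PU.1. The controls were wild-type (WT) littermates. All mice were on a C57BL/6 background and 8 to 12 weeks old, and the labels name no treatment. LSKs are lineage-negative, Sca-1-positive, c-Kit-positive cells that hold the stem and multipotent progenitors. GMPs are granulocyte-monocyte progenitors, sorted as lineage-negative, Sca-1-negative, c-Kit-positive, CD16/32-positive cells. The comparisons ask how these genes differ between UREΔ and WT mice in each population, and how they differ between LSKs and GMPs of each genotype.

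Lysosomes break down material delivered by endocytosis and autophagy. The V-ATPase acidifies their lumen: its cytosolic V1 sector hydrolyses ATP, and its V0 sector carries protons through the membrane. The acid hydrolases work at this low pH, and products such as cholesterol leave through dedicated carriers. TFEB, TFE3 and MITF bind an E-box within a palindrome called the CLEAR element at many lysosomal genes. Granulocytes and monocytes, which descend from GMPs, are rich in lysosomes and related granules, and hematopoietic stem cells use lysosomes to hold down their metabolism.

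Because the MiT factors act through this motif and PU.1 through a purine-rich one, the promoter windows of the genes were searched for both. A window (250 bases before to 50 after the transcription start, RefSeq, GRCm38.p6) was given for 33 of the 40 genes. The full CLEAR palindrome was in none of the 33 and in 0.370% of 27025 genes. Its E-box core CACGTG, which the palindrome contains and which reads alike on both strands, was in 9 of the 33 (27.3%) and in 8.09% of all genes. The 9 were *Atp6v0b*, *Atp6v0d1*, *Atp6v0e*, *Atp6v1a*, *Gaa*, *Gla*, *Glb1*, *Lamp1* and *Mcoln1*, with 4 matches in the *Lamp1* window alone (61, 45, 28 and 15 bases before the start). The PU.1 core GAGGAAGT, searched on both strands, was in *Gla* and *Gusb* (6.06% against 3.69% of all genes). A match is a run of letters and was not tested for binding. E-box matches of 5 genes whose levels are followed below are printed on the strand of the gene, with the core in capitals, and of the 4 in *Lamp1* only the one farthest from the start.
Atp6v0b (chr4:117887332-117887357, minus strand, match 18 bases before the start): gtcggcgcatCACGTGcgccggtcag
Atp6v0b (chr4:117887350-117887375, minus strand, match 36 bases before the start): gcgcgggggtCACGTGgggtcggcgc
Atp6v0d1 (chr8:105566052-105566077, minus strand, match 3 bases before the start): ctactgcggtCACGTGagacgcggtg
Gaa (chr11:119267813-119267838, plus strand, match 140 bases before the start): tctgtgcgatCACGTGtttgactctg
Gla (chrX:134601184-134601209, minus strand, match 194 bases before the start): agatctcggtCACGTGagcaactctc
Gla (chrX:134601217-134601242, minus strand, match 227 bases before the start): agcgattgatCACGTGagcatctacg
Lamp1 (chr8:13159090-13159115, plus strand, match 61 bases before the start): ggcaagatatCACGTGgtccagcgcc
The PU.1 core of *Gla*, which lies on the opposite strand and is in capitals, is printed in the same way.
Gla (chrX:134601137-134601162, minus strand, match 148 bases before the start): agatgccgcACTTCCTCctcctttgg

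Each library held 20028302 to 29128858 estimated counts. *Spi1* (chr2:91082390-91115756, plus strand), whose enhancer was deleted, was measured first. In LSKs it stood at 129, 69.6, 137 and 165 CPM (counts scaled to library size) in the WT libraries of replicates 1 to 4 and at 2.93, 4.48, 3.62 and 1.16 CPM in the UREΔ libraries. In GMPs the values were 141, 87.6, 179.5 and 147 CPM in WT and 17.3, 27.5, 23.1 and 15.2 CPM in UREΔ, so the groups did not overlap in either population. The cell type labels matched their markers: GMPs were lower than LSKs in 7 of 9 stem and multipotent markers in each genotype, and higher in *Fcgr3* and *Fcgr2b*, which encode the sorted CD16/32. Y-linked transcripts were found in 3 of 4 WT and 1 of 4 UREΔ libraries of each population, under the same replicate numbers in both, and the genotypes matched in this respect within replicates 1 and 4 only. The sources used here do not say whether LSK and GMP libraries with the same number came from the same mouse, so the populations may not be independent of each other. Sex and genotype are therefore partly confounded, and 5 of the genes (*Atp6ap1*, *Atp6ap2*, *Lamp2*, *Tfe3* and *Gla*) are X-linked.

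Libraries stood apart in markers of other lineages. The summed level of 8 monocyte markers was 433.1, 1836, 389.8 and 772.2 CPM in the UREΔ GMP libraries of replicates 1 to 4, against 1818 to 2488 CPM in WT GMPs, so that UREΔ replicate 2 reached the WT range. *Ly6c2* alone gave 349, 1147, 305 and 653 CPM of these sums in UREΔ and 248, 475, 381 and 129 CPM in WT. *Tfec* and the summed granule markers were also highest in this library within UREΔ GMPs. Several counts of calls moved without it, and these are given with the results. Among LSKs, UREΔ replicate 3 held a summed level of 5 megakaryocyte markers of 720.3 CPM, of which *Ppbp* gave 351 CPM, against 57.2 to 154.5 CPM in the other UREΔ and 58.0 to 74.4 CPM in the WT libraries.

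All 40 genes were transcribed in both populations, over a wide range. Levels were compared between genes as CPM per kilobase of exon. Exon length merged all annotated exons of a gene, for example 5438 bases for *Npc2* and 9552 for *Lamp2*. Which transcripts were in use was not determined, so the order of genes depends on this length. In WT LSKs the highest was *Psap*, the precursor of the saposins that help degrade sphingolipids, at 282 ± 50.6 CPM per kilobase (SD, n = 4). The V1 subunits *Atp6v1g1* (168 ± 32.6) and *Atp6v1f* (132 ± 28.6) followed on the same scale, and their ranges of mean ± SD overlapped. The 3 MiT factors were among the lowest, with *Tfe3*, *Mitf* and *Tfeb* at 2.75 ± 1.75, 0.983 ± 0.390 and 0.779 ± 0.460 CPM per kilobase. In WT GMPs *Hexa* (142 ± 28.7) followed *Psap* and *Atp6v1g1*. *Atp6ap2*, an accessory subunit also known as the prorenin receptor, reached 156 ± 34.9 CPM per kilobase in UREΔ GMPs, where it stood beside *Psap* at 151 ± 26.7. Of the 2 major membrane glycoproteins, *Lamp2* exceeded *Lamp1* in every group, with 34.9 ± 6.55 against 13.7 ± 4.74 CPM per kilobase in WT GMPs.

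**Figure D1:**
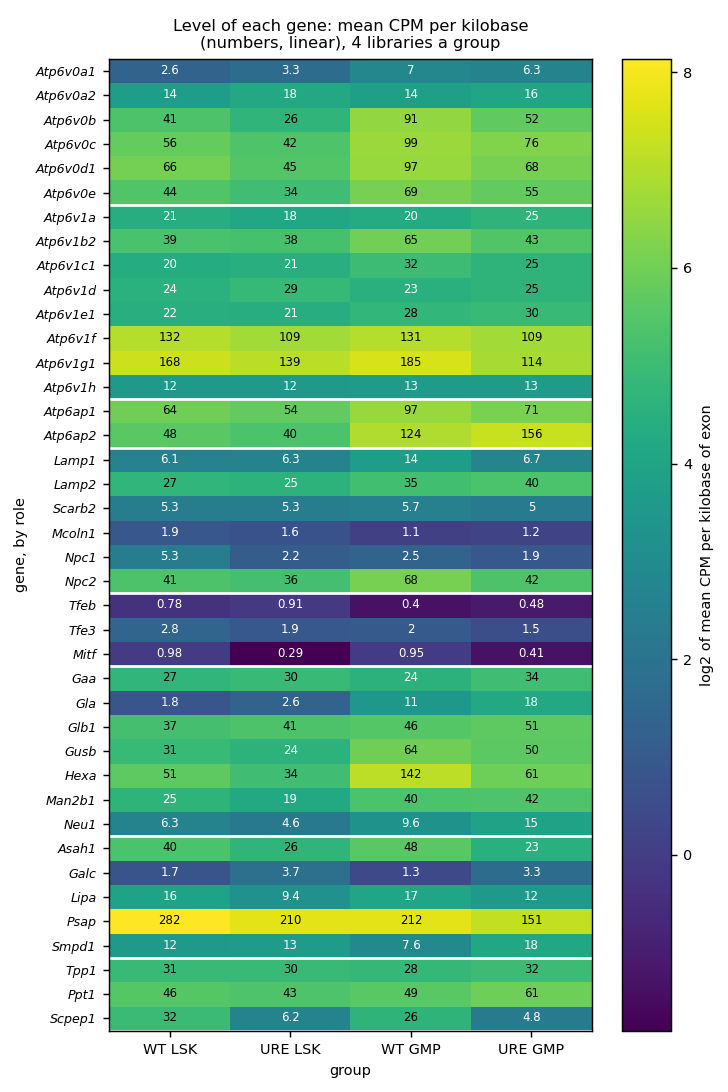
Mean level of each of the 40 genes in the 4 groups (columns, 4 libraries each) as CPM per kilobase of exon, printed in each cell on the linear scale and coloured on a log2 scale, with white lines between role groups. *Psap*, *Atp6v1g1* and *Atp6v1f* are bright in every group and the MiT factors *Tfeb* and *Mitf* dark.

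In UREΔ LSKs *Scpep1*, *Npc1* and *Asah1* were lower and *Galc* was higher than in WT LSKs. No other gene of the 40 passed the test in the pairwise fit without a block for replicate number. The fit with that block, given below, also called *Atp6v0b*, *Atp6v0d1* and *Mitf* lower. A gene was called when edgeR's quasi-likelihood test gave a Benjamini-Hochberg adjusted p, taken over all genes tested, of under 0.05 and the change exceeded 1.5-fold. All 40 passed the filter on low counts in both comparisons of genotypes. By this rule 1 of the 40 rose and 3 fell, against 2.38% of all 15154 tested genes that rose and 3.76% that fell. The log2 fold change was negative for 30 of the 40 genes, with a median of -0.25, while the median over all tested genes was 0.00. The values of UREΔ and WT libraries did not overlap for 7 genes, 1 higher and 6 lower in UREΔ, against 5.67% and 6.91% of all tested genes. *Scpep1* and *Npc1* kept their call when any 1 library was left out. *Galc* lost it without UREΔ replicate 1 or 4 or without WT replicate 2, 3 or 4, and *Asah1* without any single library other than WT replicate 3, while their log2 fold changes stayed at 0.95 to 1.19 and at -0.71 to -0.57. The call of *Asah1* was also lost with RLE size factors (adjusted p = 0.0502), without the filter (0.105) and with Y-linked transcripts as a covariate (0.163), and that of *Galc* with this covariate (0.0775). In bulk RNA, fewer cells of a type and less RNA per cell cannot be told apart.

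*Scpep1* (chr11:88924020-88955465, minus strand), a serine carboxypeptidase of the lysosome, changed most in both populations. In LSKs it stood at 66.1, 69.9, 65.3 and 65.7 CPM in WT and at 13.4, 14.4, 11.0 and 13.1 CPM in UREΔ, 5.29-fold lower (log2 fold change -2.40 ± 0.17 (SE), adjusted p = 1.13e-04). The groups were far apart and each was tight. In GMPs the WT libraries gave 51.9, 54.7, 57.4 and 50.3 CPM and the UREΔ libraries 4.04, 24.9, 6.33 and 4.71 CPM (log2 fold change -2.41 ± 0.56 (SE), adjusted p = 0.0285). Here UREΔ replicate 2, the library with the high monocyte marker sum, lay well above the other three, though below every WT library. Without it the log2 fold change was -3.41 (adjusted p = 5.07e-04). The call was lost without any 1 of the other 7 libraries (log2 fold change -2.43 to -2.15, adjusted p = 0.0509 to 0.0822). The part of the monocyte markers in this difference was not tested.

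*Galc*, galactosylceramidase, was the only one of the 40 genes called higher in UREΔ cells in the pairwise edgeR fits of all libraries with neither a replicate block nor a covariate, and was so in both populations. In LSKs its level was 31.1, 23.1, 18.7 and 28.0 CPM in WT and 69.4, 49.3, 39.3 and 60.9 CPM in UREΔ (log2 fold change 1.07 ± 0.23 (SE), adjusted p = 0.0247). All 4 UREΔ libraries lay above all WT libraries, and replicates 1 and 4 were the highest of each genotype. GMPs gave 26.5, 17.4, 14.9 and 19.8 CPM in WT and 58.9, 39.3, 29.6 and 67.0 CPM in UREΔ, 2.51-fold higher (log2 fold change 1.33 ± 0.29 (SE), adjusted p = 0.0232). *Asah1*, acid ceramidase, moved the opposite way in both. WT LSKs held 146, 158, 115 and 125 CPM of *Asah1* and UREΔ LSKs 77.3, 91.7, 85.7 and 97.2 CPM (log2 fold change -0.66 ± 0.16 (SE), adjusted p = 0.0397). In GMPs it fell from 162, 188, 158 and 141 CPM in WT to 71.1, 102, 59.3 and 79.8 CPM in UREΔ (log2 fold change -1.04 ± 0.18 (SE), adjusted p = 0.00801), without overlap. *Psap* and *Lipa*, lysosomal acid lipase, had negative values in both populations that did not pass the test (*Psap* -0.46 ± 0.17 in LSKs and -0.47 ± 0.22 in GMPs, *Lipa* -0.78 ± 0.24 and -0.46 ± 0.16, log2 fold change ± SE).

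Of the cholesterol exporters, *Npc1* was called in LSKs and *Npc2* in GMPs. *Npc1*, the membrane transporter, stood at 77.5, 52.6, 46.6 and 64.3 CPM in WT LSKs and 24.1, 21.4, 21.0 and 31.9 CPM in UREΔ LSKs, 2.52-fold lower and without overlap (log2 fold change -1.33 ± 0.22 (SE), adjusted p = 0.00705). In GMPs, where WT gave 38.1, 20.8, 23.1 and 33.2 CPM and UREΔ 19.4, 28.8, 15.98 and 21.9 CPM, the ranges overlapped (log2 fold change -0.41 ± 0.27 (SE), adjusted p = 0.465). *Npc2*, the soluble carrier that hands cholesterol to NPC1, showed no called change in LSKs (log2 fold change -0.23 ± 0.18 (SE), adjusted p = 0.692). In GMPs it fell from 306, 406, 451 and 309.8 CPM to 196, 252, 237 and 218 CPM (log2 fold change -0.69 ± 0.18 (SE), adjusted p = 0.0465). The difference between the populations was itself tested for each gene and did not pass (interaction, *Npc1* 0.91 ± 0.35, adjusted p = 0.288, *Npc2* -0.48 ± 0.24, adjusted p = 0.476).

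**Figure D2:**
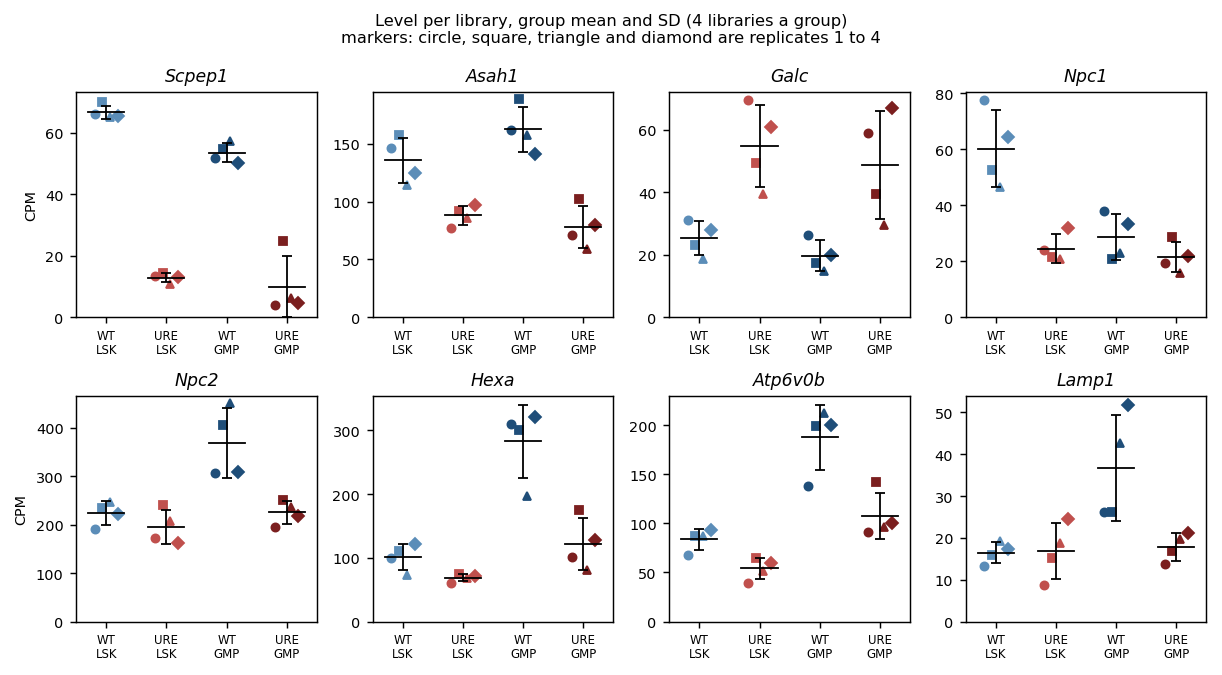
CPM of 8 genes in each library (y axis, linear, from 0) by group (x axis), with the group mean and SD as black bars and the replicate number as the marker shape. *Scpep1*, *Asah1* and *Galc* separate UREΔ from WT in both populations, and UREΔ GMP replicate 2 lies above its group for *Scpep1*.

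In GMPs, 1 of the 40 genes rose in UREΔ mice and 5 fell in the fit without the replicate block (5 and 7 with it, given below). Beside *Scpep1*, *Asah1* and *Npc2*, the genes that fell without the block were *Hexa* and *Atp6v0b*. Over all 13829 tested genes 4.67% rose and 3.63% fell. The log2 fold change was negative for 22 of the 40, with a median of -0.21 against 0.01 over all genes. Leaving out 1 library at a time, the median of the 40 ran from -0.29 to 0.028, and it was positive without WT replicate 1. The libraries did not overlap for 2 genes higher, *Galc* and *Gla*, and 8 lower in UREΔ, against 7.27% and 7.67% of all genes. For *Gla* the lowest UREΔ value, 45.72 CPM, and the highest WT value, 45.71 CPM, were nearly equal. *Asah1* was the one gene to keep its call when any 1 library was left out. *Npc2* lost it without any 1 library other than WT replicate 1, *Atp6v0b* without any other than UREΔ replicate 2 or WT replicate 1, and *Hexa* and *Galc* without UREΔ replicate 1 or 4 or WT replicate 2 or 4. *Npc2* and *Atp6v0b* also lost their call with RLE size factors (adjusted p = 0.0507 and 0.0520) and without the filter on low counts (0.0670 and 0.0616). Leaving out 1 library, log2 fold changes ran from -0.77 to -0.56 for *Npc2*, -0.97 to -0.71 for *Atp6v0b*, -1.45 to -1.06 for *Hexa* and 1.13 to 1.497 for *Galc*. With Y-linked transcripts as a covariate 2 genes were called lower, *Hexa* and *Lamp1*, and none higher.

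Among the glycosidases, *Hexa*, the alpha subunit of beta-hexosaminidase A, fell in GMPs. WT GMPs gave 310.2, 301, 197 and 321 CPM and UREΔ GMPs 101, 175, 80.4 and 128 CPM, 2.297-fold lower (log2 fold change -1.20 ± 0.25 (SE), adjusted p = 0.0184). The highest UREΔ value, again replicate 2, was below the lowest WT value, replicate 3. In LSKs *Hexa* was -0.59 ± 0.18 (adjusted p = 0.112). *Gla*, alpha-galactosidase A, had the largest positive value of this group in both populations in the fit without the replicate block, without a call (0.52 ± 0.30 in LSKs and 0.73 ± 0.24 in GMPs). With the block, given below, *Gaa* was larger in GMPs (1.85-fold against 1.64-fold for *Gla*), and both were called. *Gusb*, beta-glucuronidase, and *Glb1*, beta-galactosidase, stayed within 1.5-fold (-0.37 and 0.11 in LSKs, -0.34 and 0.20 in GMPs).

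In the pairwise edgeR fits of all libraries without the replicate block, *Atp6v0b* in GMPs was the one call among the 16 V-ATPase genes. The fit with the block, given below, also called *Atp6v0b* and *Atp6v0d1* lower in LSKs and *Atp6v1g1* lower in GMPs. *Atp6v0b*, a proteolipid of the proton-carrying ring, stood at 67.4, 87.0, 86.7 and 93.0 CPM in WT LSKs and 39.7, 64.6, 51.7 and 60.1 CPM in UREΔ LSKs, without overlap (log2 fold change -0.67 ± 0.20 (SE), adjusted p = 0.09996). Its GMP values were 138, 199, 212 and 200.2 CPM in WT and 90.8, 142, 96.6 and 100.03 CPM in UREΔ, where only WT replicate 1 and UREΔ replicate 2 crossed (log2 fold change -0.79 ± 0.20 (SE), adjusted p = 0.0460). *Atp6v0d1*, which joins the ring to the central stalk, gave 110.2, 122, 115 and 126 CPM in WT LSKs and 75.1, 97.7, 71.7 and 76.9 CPM in UREΔ LSKs (log2 fold change -0.60 ± 0.16 (SE), adjusted p = 0.0548). The median log2 fold change of the 6 V0 genes was -0.41 in LSKs and -0.34 in GMPs, and that of the 8 V1 genes -0.10 and -0.10. In the pairwise edgeR fits of all libraries without the replicate block no V1 gene was called in either population, while DESeq2 called *Atp6v1g1* lower in GMPs (adjusted p = 0.0441), as did edgeR's fit of all 16 libraries (0.0339) and the pairwise fit without WT replicate 1 (0.0277). The lowest value among them was *Atp6v1g1* in GMPs (log2 fold change -0.68 ± 0.20 (SE), adjusted p = 0.0755), and the highest *Atp6v1a*, the catalytic subunit, in GMPs (log2 fold change 0.37 ± 0.26 (SE), adjusted p = 0.495). The highest values in LSKs were those of *Atp6v1d* (0.27 ± 0.18) and, in the V0 sector, *Atp6v0a2* (0.38 ± 0.36). *Atp6ap1* and *Atp6ap2* were not called (-0.27 ± 0.14 and -0.29 ± 0.18 in LSKs, -0.43 ± 0.13 and 0.36 ± 0.23 in GMPs). The summed level of all 16 V-ATPase genes was 1914 to 2292 CPM in WT LSKs and 1695 to 2131 CPM in UREΔ LSKs, which overlap.

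The 3 MiT factors among the 40, which act on many of these genes, were low and were not called in either population in the pairwise edgeR fits of all libraries without the replicate block. The fourth family member, *Tfec*, is in the wider list described below. *Tfeb* stood at 7.52, 3.09, 1.59 and 5.45 CPM in WT LSKs and 9.42, 1.67, 1.54 and 7.93 CPM in UREΔ LSKs (log2 fold change 0.16 ± 0.68 (SE), adjusted p = 0.973). *Tfe3* gave 47.3, 18.4, 9.27 and 26.8 CPM and 34.3, 5.72, 8.25 and 23.2 CPM (log2 fold change -0.56 ± 0.61 (SE), adjusted p = 0.836). For both, the libraries of replicates 1 and 4 were above those of replicates 2 and 3 in each genotype, and this spread exceeded the difference between genotypes. *Mitf* stood at 8.69, 5.11, 3.22 and 7.33 CPM in WT LSKs and 2.41, 0.971, 0.916 and 2.83 CPM in UREΔ LSKs, without overlap (log2 fold change -1.82 ± 0.48 (SE), adjusted p = 0.0600). DESeq2 called it lower (adjusted p = 0.00401), as did the fit with the replicate block given below and replicates 1 and 4 alone (0.0387). In GMPs it was -1.22 ± 0.56 (adjusted p = 0.266, and 0.0218 in replicates 1 and 4 alone), *Tfeb* 0.26 ± 0.43 and *Tfe3* -0.40 ± 0.64.

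**Figure D3:**
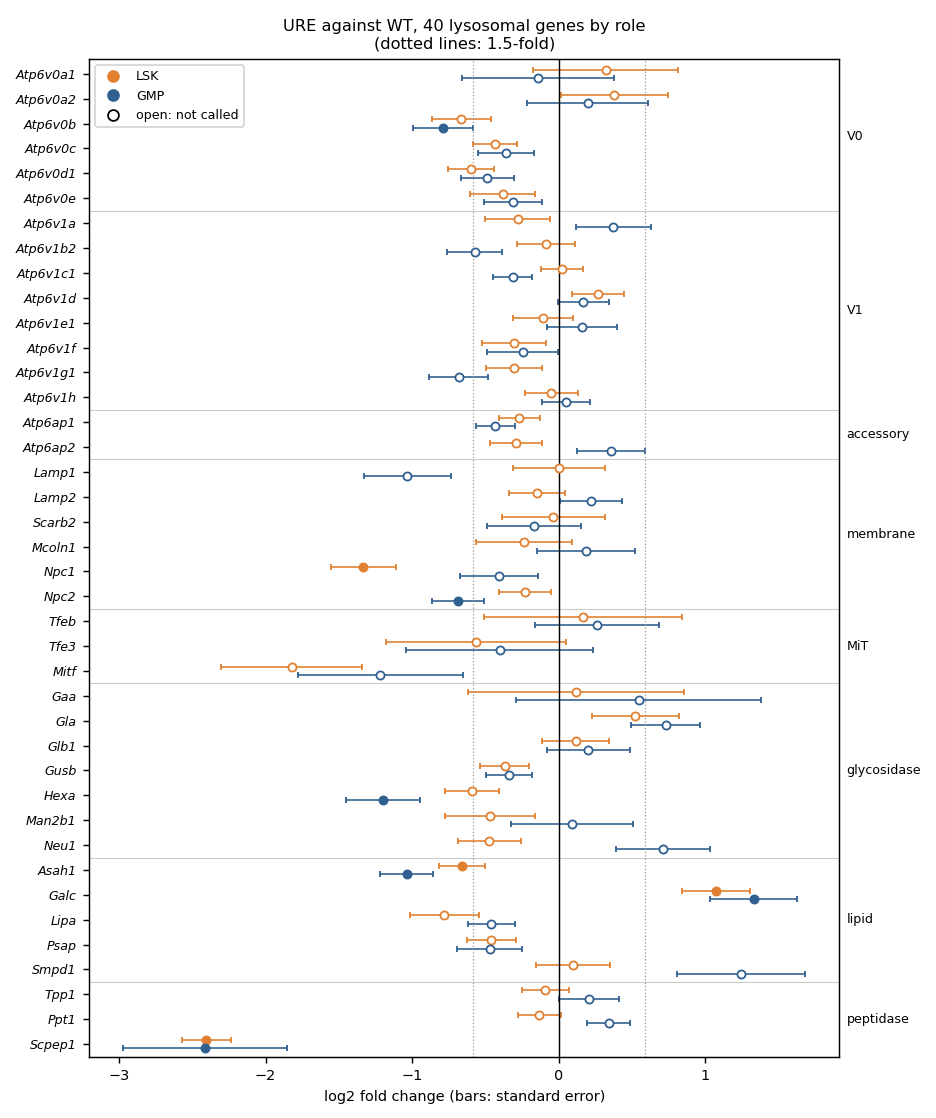
Log2 fold change of UREΔ against WT (x axis, bars are standard errors) for each of the 40 genes by role, in LSKs (orange) and GMPs (blue), with filled points for called genes and dotted lines at 1.5-fold. *Scpep1* lies far to the left and *Galc* to the right in both populations, while most other points are open and near 0.

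The remaining extremes of the roles were not called. *Ppt1*, a thioesterase that removes fatty acids from proteins, stood at 168, 192, 187 and 170.0 CPM in WT GMPs and 223, 261, 181 and 231 CPM in UREΔ GMPs (log2 fold change 0.34 ± 0.14 (SE), adjusted p = 0.222). *Tpp1*, a tripeptidyl peptidase, gave 178, 159, 125 and 174 CPM in WT LSKs and 178, 151, 136 and 148 CPM in UREΔ LSKs (log2 fold change -0.09 ± 0.16 (SE), adjusted p = 0.925). *Lamp2* gave 330.5, 418, 317 and 268 CPM in WT GMPs and 345, 513, 266 and 406 CPM in UREΔ GMPs (log2 fold change 0.22 ± 0.21 (SE), adjusted p = 0.650). The groups overlapped for all 3.

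Libraries with the same replicate number deviated together, and a fit with that number as a block separated more genes. In LSKs it called 6 of the 40 lower, against 5.62% of all genes: to the 3 named above it added *Atp6v0b* (log2 fold change -0.68 ± 0.13 (SE), adjusted p = 0.0136), *Atp6v0d1* (log2 fold change -0.61 ± 0.12 (SE), adjusted p = 0.0200) and *Mitf* (log2 fold change -1.89 ± 0.31 (SE), adjusted p = 0.00723). In GMPs it called 5 higher and 7 lower, against 9.52% and 6.82% of all genes. The additional rises were hydrolases: *Smpd1*, acid sphingomyelinase (log2 fold change 1.40 ± 0.25 (SE), adjusted p = 0.00697), *Gaa*, which degrades lysosomal glycogen (log2 fold change 0.88 ± 0.23 (SE), adjusted p = 0.0349), *Gla* (log2 fold change 0.72 ± 0.21 (SE), adjusted p = 0.0481) and *Neu1*, a sialidase (log2 fold change 0.66 ± 0.17 (SE), adjusted p = 0.0293). *Smpd1* and *Neu1* lay above WT in all 4 pairs, *Gla* in 3 clearly and in replicate 3 by 45.72 against 45.71 CPM, and *Gaa* in 3. The additional falls were *Atp6v1g1* (log2 fold change -0.66 ± 0.13 (SE), adjusted p = 0.0120) and *Lamp1* (log2 fold change -0.98 ± 0.17 (SE), adjusted p = 0.00633). Without UREΔ replicate 2 the fit with the block called 2 higher, *Galc* and *Smpd1*, so that *Gaa*, *Gla* and *Neu1* lost their call, and 7 lower, with *Mitf* in place of *Atp6v1g1*.

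*Lamp1* was the one gene of the 40 with a called difference between the genotype effects of the populations, in the fit with the replicate block. Its level was 13.4, 15.8, 19.3 and 17.2 CPM in WT LSKs and 8.74, 15.2, 18.9 and 24.6 CPM in UREΔ LSKs, with overlapping ranges. WT GMPs held 26.3, 26.1, 42.6 and 51.8 CPM and UREΔ GMPs 13.7, 16.8, 19.7 and 21.0 CPM, without overlap. The interaction was -1.05 ± 0.43 (adjusted p = 0.333) and, with the replicate block, -0.93 ± 0.25 (adjusted p = 0.0405). In edgeR's fit without the block none of the 40 was called, as with DESeq2, 5 had an unadjusted p under 0.05, and 0.866% and 0.351% of 15935 genes were called more positive and more negative in GMPs. With the block 3.97% and 2.6% were. *Lamp2* showed no such difference (interaction 0.36 ± 0.30, adjusted p = 0.773).

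Between LSKs and GMPs most calls were higher in GMPs, led by *Gla*, *Hexa* and *Atp6ap2* in WT and *Gla*, *Atp6ap2* and *Neu1* in UREΔ mice. In WT mice 12 of the 40 were higher in GMPs and 1 lower, against 11.5% and 15.8% of all 14767 genes. In UREΔ mice 11 were higher and none lower, against 9.2% and 12.6% of 14395 genes (none lower with DESeq2 either, and 1, *Psap*, with a negative value and an unadjusted p under 0.05 in edgeR). Without UREΔ GMP replicate 2 there were 6 higher and 1 lower in UREΔ mice. Of the rises 7 were found in both genotypes, *Atp6ap2*, *Atp6v0b*, *Atp6v0c*, *Atp6v0e*, *Gla*, *Gusb* and *Hexa*, and without that library 5, these less *Atp6v0e* and *Hexa*. The replicate block called 13 higher in WT and 12 in UREΔ mice, adding *Atp6v0a1* in both, against 15.8% and 13.3% of all genes. Without that library it called 10 higher and 1 lower in UREΔ mice. The median log2 fold change of the 40 was 0.20 in WT and 0.29 in UREΔ, where the median over all genes was -0.09 and -0.09.

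*Gla* rose most, from 4.27, 6.25, 6.53 and 5.85 CPM in WT LSKs to 30.3, 38.6, 45.7 and 32.2 CPM in WT GMPs, 6.42-fold (log2 fold change 2.68 ± 0.23 (SE), adjusted p = 9.72e-05). UREΔ mice gave 7.22, 10.6, 10.0 and 5.74 CPM in LSKs and 57.5, 85.6, 45.7 and 52.5 CPM in GMPs, 7.202-fold (log2 fold change 2.85 ± 0.29 (SE), adjusted p = 2.87e-04). The populations were widely separated in both genotypes. *Atp6ap2* rose 2.58-fold in WT and 3.92-fold in UREΔ mice (log2 fold change 1.37 ± 0.21 (SE), adjusted p = 0.00177, and log2 fold change 1.97 ± 0.20 (SE), adjusted p = 2.93e-04). *Hexa* (1.48 ± 0.22), *Lamp1* (1.17 ± 0.28) and *Atp6v0b* (1.17 ± 0.19) completed the 5 largest called changes in WT, with adjusted p = 0.00133, 0.0138 and 0.00201. In UREΔ mice they were *Neu1* (1.74 ± 0.32), *Man2b1*, lysosomal alpha-mannosidase (1.17 ± 0.34), and *Gusb* (1.04 ± 0.17), with adjusted p = 0.00450, 0.0358 and 0.00262. The call of *Man2b1* was lost without UREΔ GMP replicate 2 (adjusted p = 0.0579), and also without UREΔ GMP replicate 1 or 4 or UREΔ LSK replicate 2, 3 or 4. *Neu1* and *Gusb* kept theirs without any 1 library.

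Over all genes 11.5% were called higher in WT and 9.2% in UREΔ GMPs. By role, of 6 V0 genes 3 were called higher in WT and 4 in UREΔ GMPs, with a median of 0.74 and 0.76, and 2 in UREΔ without replicate 2 of the GMPs. Among 8 V1 genes only *Atp6v1b2* and *Atp6v1c1* were called in WT (0.74 ± 0.19 and 0.65 ± 0.14) and none in UREΔ mice. The glycosidases counted 3 of 7 called higher in WT and 5 of 7 in UREΔ, with medians of 0.67 and 1.04, and 3 in UREΔ without that library. None of the 5 lipid genes, of the 3 peptidases or thioesterases, or of the 3 MiT factors was called in either genotype. The gene called lower in GMPs was *Npc1* in WT (log2 fold change -1.06 ± 0.26 (SE), adjusted p = 0.0144). In UREΔ mice its value was -0.18 ± 0.24 (adjusted p = 0.631). With the replicate block 5 genes were lower in WT GMPs, *Npc1*, *Mcoln1*, *Tfeb*, *Tfe3* and *Smpd1*, against 25.1% of all genes. Of the 9 genes with an E-box in the promoter window, 4 were called higher in GMPs of each genotype, and of the 24 without it, 6 in WT and 7 in UREΔ. Without UREΔ GMP replicate 2 these counts in UREΔ mice were 2 of the 9 and 4 of the 24.

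**Figure D4:**
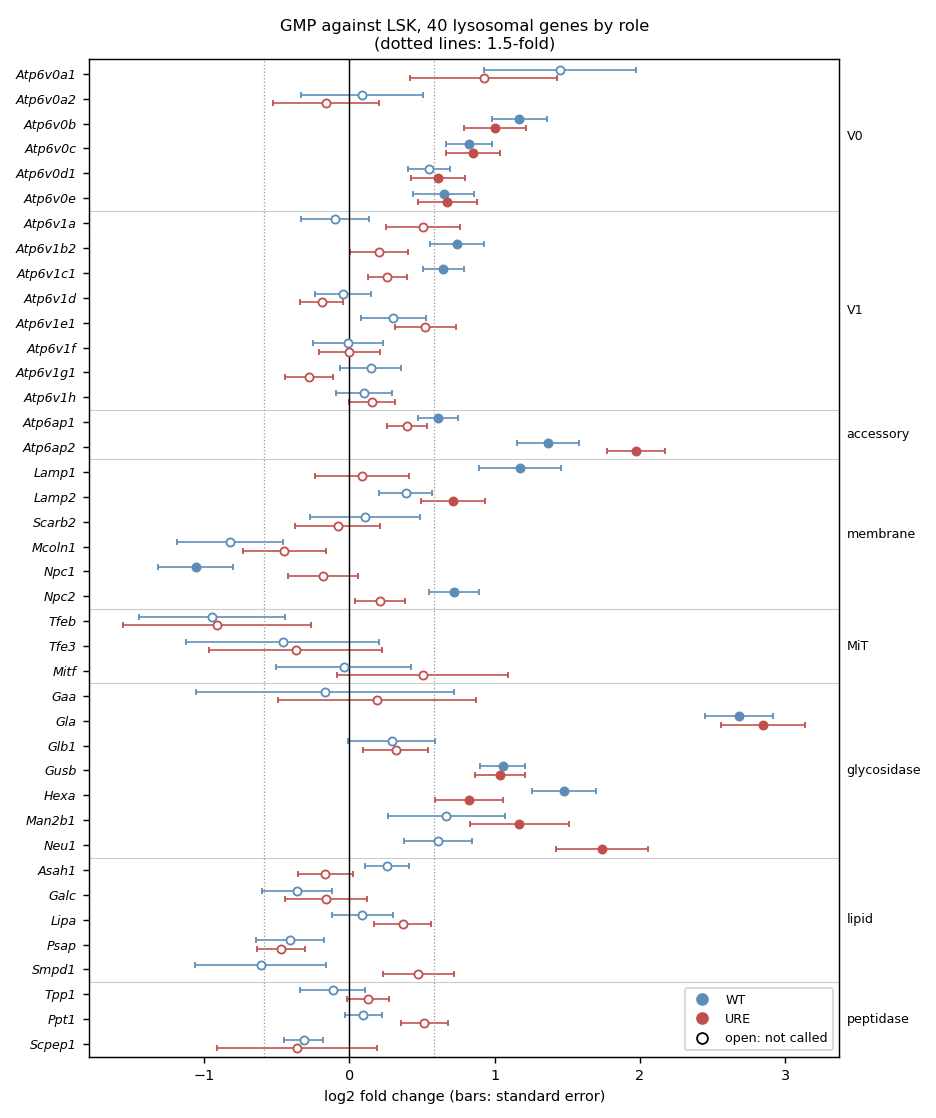
Log2 fold change of GMPs against LSKs (x axis, bars are standard errors) for the 40 genes by role, in WT (blue) and UREΔ mice (red), with filled points for called genes and dotted lines at 1.5-fold. Filled points lie to the right except *Npc1* in WT, and *Gla* lies farthest right in both genotypes.

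A wider list of 69 further lysosomal genes, of which 61 to 63 could be tested against genotype, was taken beside the 40. In UREΔ LSKs 7 were lower and 1 was higher, *Cd63*, a tetraspanin of late endosomes and granules (0.95 ± 0.15, named after its value was seen), of 63 tested, against 3.76% and 2.38% of all genes. The replicate block gave 9 and 1, against 5.62% and 3.83%. Among the 7 were *Tfec*, the MiT family member of macrophages (log2 fold change -5.20 ± 0.38 (SE), adjusted p = 1.13e-04), the sorting receptors *Sort1* (log2 fold change -3.27 ± 0.47 (SE), adjusted p = 0.00333) and *Igf2r* (log2 fold change -2.19 ± 0.44 (SE), adjusted p = 0.0168), and *Cd68*, a macrophage lysosomal glycoprotein (log2 fold change -2.03 ± 0.24 (SE), adjusted p = 0.00123), with *Ids* (-1.22 ± 0.31) and *Laptm5* (-1.09 ± 0.24). *Tfec* stood at 17.2, 25.1, 20.4 and 25.4 CPM in WT LSKs and 0.681, 0.301, 0.542 and 0.943 CPM in UREΔ LSKs. In UREΔ GMPs 5 were higher, *Cd63* (1.42 ± 0.16), *Galns* (1.85 ± 0.27), *Arsb* (1.44 ± 0.38), *Naglu* (1.28 ± 0.23) and *Gnptg* (0.80 ± 0.17, named after its value was seen), and 2 lower, *Cd68* (-2.31 ± 0.31) and *Tfec* (-3.26 ± 0.84), of 61 tested, against 4.67% and 3.63% of all genes. With the block these counts were 7 and 4, against 9.52% and 6.82% of all genes. Without UREΔ replicate 2 there were 3 and 2, since *Arsb* and *Gnptg* lost their call, and 5 and 4 with the block. *Tfec* stood at 37.0, 63.6, 60.4 and 35.8 CPM in WT GMPs and 0.963, 15.8, 1.91 and 1.75 CPM in UREΔ GMPs, where replicate 2 was the highest, and without it its log2 fold change was -4.99 (edgeR, adjusted p = 6.62e-04). *Galns*, *Arsb* and *Naglu* encode hydrolases of glycosaminoglycans. Of 64 tested in the interaction, *Igf2r* and *Sort1* were called more positive (log2 fold change 3.26 ± 0.64 (SE), adjusted p = 0.0218, and log2 fold change 2.52 ± 0.56 (SE), adjusted p = 0.0397), against 0.866% of all genes. With the block 5 were, against 3.97% of all genes. In GMPs against LSKs 11 were higher and 8 lower of 63 in WT, against 11.5% and 15.8% of all genes, and 10 and 5 of 62 in UREΔ mice, against 9.2% and 12.6%. With the block these were 14 and 13 in WT, against 15.8% and 25.1% of all genes, and 12 and 8 in UREΔ mice, against 13.3% and 18.6%. Without UREΔ GMP replicate 2 the counts in UREΔ mice were 8 and 5, and 12 and 6 with the block. The median log2 fold change of UREΔ against WT was -0.12 in LSKs and -0.03 in GMPs.

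Some markers of maturing lineages differed between genotypes. Over all genes, 3.76% were called lower and 2.38% higher in UREΔ LSKs, and 3.63% and 4.67% in UREΔ GMPs. With the block these shares were 5.62% and 3.83% in LSKs, and 6.82% and 9.52% in GMPs. Of 8 monocyte markers 5 were lower in UREΔ mice in each population, and their sum was 14.2 to 33.6 CPM in UREΔ against 124 to 160.3 CPM in WT LSKs. Each of the 8 had counts in every group. In GMPs the sum of 11 neutrophil granule markers was 102163, 153448, 72521 and 106055 CPM in UREΔ replicates 1 to 4 and 54158 to 72426 CPM in WT, so that the lowest UREΔ and the highest WT library lay close together. *Mpo*, myeloperoxidase, made up most of these sums, with 86871, 124159, 59814 and 87561 CPM in UREΔ and 49259, 61169.9, 43135 and 48578 CPM in WT GMPs. Of these markers 2 were called higher and 1, *Mmp8*, lower, and with the replicate block 8 and 1 (6 and 1 without UREΔ replicate 2). In LSKs the granule sums overlapped (1019 to 1858 CPM in UREΔ against 1061 to 1688 CPM in WT), as did *Mpo* (537, 1135, 845 and 768 against 781, 956, 1265 and 954 CPM). Of the 10 granule markers tested in LSKs 8 had a positive log2 fold change, with a median of 0.80. In LSKs 2 of them were called higher and 1, *Prtn3*, lower, and 6 and 1 with the block. Of dendritic markers 2 of 5 tested were called lower in LSKs and 3 of 4 in GMPs, and of lymphoid ones 2 of 5 and 2 of 2. Without UREΔ GMP replicate 2, 6 monocyte markers were called lower in GMPs. Of the 5 dendritic markers then tested in GMPs, 3 were lower and 1 was higher. Of basophil and mast cell markers, *Cpa3* and *Mcpt8* were higher in LSKs, and in GMPs 1 was higher and 2 lower. With the block and without UREΔ GMP replicate 2, 2 were higher and 2 lower in GMPs. No erythroid marker passed edgeR's test in the fit without the block (unadjusted, 2 in LSKs and 0 in GMPs were under 0.05), *Car1* was lower in LSKs with it, and of the megakaryocyte ones *Itga2b* was higher in LSKs. In GMPs 1 erythroid marker was called higher with the block and without UREΔ GMP replicate 2. The markers of the sorted cells themselves also differed by genotype. *Cd34*, a stem and progenitor cell marker, stood at 1466, 1465, 1269.9 and 1349 CPM in WT and 626, 779, 396 and 503.6 CPM in UREΔ LSKs, and at 1129.5, 1040.4, 891 and 1128 CPM in WT and 294, 320.4, 274 and 301 CPM in UREΔ GMPs. It was called lower in both, alone of 9 stem and multipotent markers, while with the block 2 were called lower in LSKs and 4 in GMPs (2 without UREΔ GMP replicate 2). *Fcgr3* was called higher in UREΔ GMPs (232, 438, 383 and 237 CPM in WT against 507, 1276, 749 and 678 CPM in UREΔ), a call lost without UREΔ replicate 2 in the fit without the block, and *Fcgr2b* lower in UREΔ LSKs and, with the block or without that library, in UREΔ GMPs. The part of these lineages and markers in the lysosomal values was not tested.

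Some genes differed by replicate number in every group. In replicates 1 and 4, 10 of the 40 were higher than in replicates 2 and 3 in all 4 groups (12.1% of all tested genes), and 3 were lower in all 4 (6.11%). *Gaa* spread most, with 257, 60.5, 23.6 and 173 CPM in WT LSKs and 253, 36.7, 79.2 and 208 CPM in UREΔ LSKs, and a coefficient of variation with a median of 77.1% over the 4 groups. By this median *Atp6v1c1*, a V1 stalk subunit, had the smallest, at 8.26%. For *Scpep1* the median was 8.46%, but the value in UREΔ GMPs 99.8%, against at most 98.7% for *Gaa*. What sets these replicate numbers apart is not given in the labels, and its part was not tested. Within replicates 1 and 4 alone, where Y-linked transcripts match, *Scpep1*, *Npc1*, *Mitf* and *Lipa* were called lower and *Galc* higher in LSKs, and *Scpep1*, *Hexa*, *Asah1* and *Mitf* lower and *Galc* and *Smpd1* higher in GMPs (edgeR). Within replicates 2 and 3 only *Scpep1* in LSKs was.

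**Figure D5:**
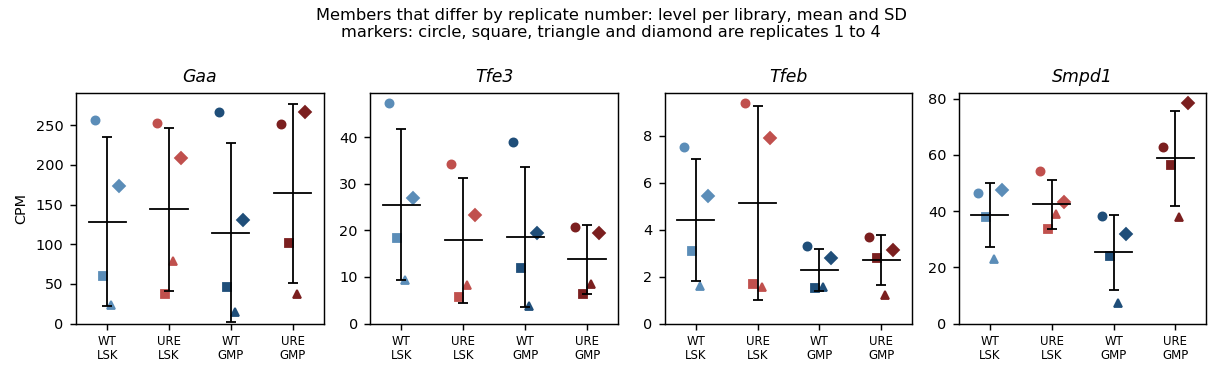
CPM of *Gaa*, *Tfe3*, *Tfeb* and *Smpd1* in each library (y axis, linear, from 0) by group (x axis), with the mean and SD as black bars and the replicate number as the marker shape. Circles and diamonds, replicates 1 and 4, lie above squares and triangles, replicates 2 and 3, for *Gaa* and *Tfe3* in every group.

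The libraries were not stranded, so reads of overlapping genes cannot be separated. The share of a gene's 31-base words that another gene also holds was 3.24% for *Scpep1*, 2.87% for *Galc*, 5.78% for *Npc1*, 7.30% for *Lamp1*, 9.84% for *Atp6v0b* and 11.4% for *Hexa*. Words can be shared through overlap or through similar sequence elsewhere in the genome. The highest share was 24.0%, for *Atp6v1g1*. It was held with *Gm13453*, while no annotated gene overlapped the exons of *Atp6v1g1*.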

How the data were processed

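RNA-seq libraries were made from LSKs and GMPs of UREΔ and WT mice (4 each), from up to 10 ng of RNA, unstranded and without molecular identifiers. The authors quantified reads with Salmon on GRCm38 (submitters' processing notes) and deposited estimated counts per gene as whole numbers, not normalized, for 54347 genes. The annotation release and versions are not given in the sources used here. GENCODE M21 holds 54094 of the identifiers and gave coordinates and exon lengths (all annotated exons of a gene merged). Counts per sample ran from 20028302 to 29128858. Depth bears on counting error, and any further part of it was not tested.

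Estimated counts were tested with edgeR 4.0.16 in R 4.3.3 (TMM, filterByExpr, quasi-likelihood F-test, Benjamini-Hochberg), separately for each pair of groups, with an interaction fit over 16 libraries. Calls needed an adjusted p under 0.05 and over 1.5-fold (no fold for the interaction). CPM used TMM factors over all libraries. Replicates carry separate labels within a group, and no 2 libraries agreed within sampling noise. Same-numbered libraries of the compared groups correlated in their deviations from the group means (0.238 to 0.710), so replicate number was also fitted as a block. Differently numbered pairs gave -0.592 to 0.397. Between LSKs and GMPs, same-numbered pairs gave 0.418 to 0.710 in WT and 0.377 to 0.525 in UREΔ mice. Differently numbered pairs there reached at most 0.29 and 0.31. The fits of GMPs against LSKs without the block did not use the replicate number. Between genotypes, replicate 4 of one group correlated more with replicate 1 of the other (0.397 in LSKs, 0.387 in GMPs) than with replicate 4 (0.282 and 0.238). On simulated LSK data with 4-fold changes, 77.5% of changed genes were recovered. With a simulated replicate effect this was 35.0% without and 70.0% with the block, with 1 and 7 false calls among 14827 genes. The simulated effect was the same in same-numbered libraries of both genotypes, which is what the block assumes. The gain was thus built in and does not show whether the block suits these libraries. Other sizes of change were not simulated.

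Alternatives were DESeq2 1.42.0, RLE size factors, no low-count filter, the block, no minimum fold, a joint fit, replicate subsets and leaving out each library. A covariate for Y-linked transcripts, and the other gene lists and the block without UREΔ GMP replicate 2, were chosen after seeing the data. The members and lists were chosen with earlier results of these data known. Named were *Spi1*, *Lamp1*, *Lamp2*, the MiT factors, genes called for genotype with or without the block, the largest rise and fall of each role, the 5 largest called GMP against LSK changes per genotype and up to 6 called genes of other lists. Promoter windows came from RefSeq (GRCm38.p6).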

Additional observations from a re-analysis of the deposited data

Results flagged for a closer look

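In 6 of 164 checks of a gene in a group of 4 libraries, 1 library lay far from the others by Dixon's ratio, where chance alone gives about 5%. *Scpep1* in UREΔ GMP replicate 2 was at 24.9 CPM against 4.04 to 6.33 CPM in the other UREΔ GMPs, and *Lipa* in the same library at 101.4 CPM against 72.3 to 76.4 CPM. *Atp6v1a* in UREΔ LSK replicate 4 was at 78.4 CPM, below 113.4 to 117.6 CPM. *Atp6v1h* in WT LSK replicate 2 was at 149.8 CPM, above 100.3 to 108.6 CPM. *Hexa* in WT GMP replicate 3 was at 197.4 CPM, below 301.1 to 321.4 CPM. *Psap* in WT LSK replicate 3 was at 565.7 CPM, below 823.8 to 854.9 CPM. The genotype effect on *Spi1* differed between GMPs and LSKs by 2.64 on the log2 scale (edgeR interaction, adjusted p = 0.0218).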

How the results depend on the processing

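Counts of called genes among the 40 moved with the setting, and in no alternative was a gene called in the opposite direction. The replicate block gave 6 lower in LSKs, 5 higher in GMPs, 5 lower for GMPs against LSKs in WT and 1 for the interaction, and changed no other count by over 1.5 times. RLE size factors and no filter gave 3 lower in GMPs each, without *Npc2* and *Atp6v0b*. Replicates 1 and 4 alone gave 2 higher in GMPs and 2 lower for GMPs against LSKs in UREΔ. Replicates 2 and 3 alone gave 0 higher and 1 lower in LSKs, 0 and 0 in GMPs, and 2 higher for GMPs against LSKs in UREΔ. The Y-linked covariate gave 0 higher in LSKs, and 0 higher and 2 lower in GMPs. Leaving out one library at a time gave 0 to 1 higher and 2 to 4 lower in LSKs, 0 to 1 higher and 1 to 5 lower in GMPs, 6 to 11 higher and 0 to 1 lower for GMPs against LSKs in UREΔ, 11 to 13 higher and 1 lower in WT, and 0 for the interaction. *Scpep1* and *Npc1* kept their call in LSKs without any single library. In GMPs the call of *Scpep1* was lost without UREΔ replicates 1, 3 or 4 or any WT replicate. The median log2 fold change of the 40 in GMPs ran from -0.29 to 0.028, and was positive without WT replicate 1. Causes, including the part of depth, were not tested.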
